A study of Homo sapiens with 9 samples.

Results

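Transcripts of 53 genes encoding nucleoporins and nuclear transport factors were followed through RNA immunoprecipitation (RIP) of the nuclear poly(A) binding protein PABPN and the cytoplasmic poly(A) binding protein PABPC. The genes were chosen by name and biotype, with earlier results of these data known. They were the protein coding genes whose symbols form the numbered NUP, THOC, XPO, IPO and KPNA series, together with KPNB1, TNPO1, TNPO2, TNPO3, NXF1 and ALYREF. They are 53 of the 51111 genes in the PABPN comparison and of the 51268 genes in the PABPC comparison. The cells were HEK293T, an established line of transformed human embryonic kidney cells, all crosslinked with 0.1% formaldehyde for 10 min. Each of 3 biological replicate lysates was divided between the antibodies, and 3 input, 3 PABPN RIP and 3 PABPC RIP libraries were made after ribosomal RNA depletion. No cell was treated or mutated, no mock immunoprecipitation was analysed here, and the reads were single-end, of 75 nt.

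The nuclear pore complex is the channel of the nuclear envelope. Outer ring and inner ring nucleoporins build its scaffold, phenylalanine-glycine (FG) nucleoporins fill the channel, and other nucleoporins form the cytoplasmic filaments, the nuclear basket and the membrane anchor. Importins, exportins and transportins carry proteins and some RNAs through the channel under the control of the small GTPase RAN, importin alpha proteins serving as adaptors for importin beta (KPNB1). Messenger RNA takes another route, in which the THO complex and the adaptor ALYREF load the export receptor NXF1 onto the RNA. PABPN binds the poly(A) tail as it is made in the nucleus, and PABPC coats the tail in the cytoplasm.

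Because both antibodies were directed at poly(A) binding proteins, the annotated ends of representative transcripts are shown first. Which ends received tails in these cells was not analysed here, and a gene can have other annotated ends. The sequences below are the last 30 bases of the MANE Select transcript (the agreed representative transcript) in GENCODE release 44, on build hg38, for the members with opposite calls for PABPN and PABPC, the lowest member with PABPN (KPNA2), the 2 enriched with PABPN (NUP42 and TNPO2), and TNPO1, the close relative of TNPO2. They are written 5′ to 3′ on the transcript strand, and capitals mark the last AATAAA, the canonical polyadenylation signal, where the window holds it.
ALYREF: AATAAAatagaaatgtgtgtagaactggaa
IPO5: agacataagcaAATAAAtggtcttggtgca
THOC7: aaatgcttAATAAAatgcttttaagctgca
KPNA2: acattcaagtccacccttttcttgacttca
NUP42: atgcacgAATAAAgtacttttctcatgcca
TNPO2: tttgttgagtaaagatcagtttcttgtgaa
TNPO1: tgactatgttAATAAAgttgtttaactata
These windows lie at chr17:81887835-81887864 on the minus strand (ALYREF), chr13:98024267-98024296 on the plus strand (IPO5), chr3:63833870-63833899 on the minus strand (THOC7) and chr17:68046825-68046854 on the plus strand (KPNA2). The others lie at chr7:23200977-23201006 on the plus strand (NUP42), chr19:12699201-12699230 on the minus strand (TNPO2) and chr5:72914359-72914388 on the plus strand (TNPO1), all in the last exon at the end of the 3′ untranslated region.

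Of the 52 members with such a transcript, 35 held AATAAA in the window (67.3%), against 58.1% of 19061 protein coding genes. The variant ATTAAA without AATAAA was found in 3 members (5.77% against 13.4%), and 14 held neither (26.9% against 28.5%). The search used the transcript strand alone and a window with both motifs counted under AATAAA. KPNA2 and TNPO2, which lay at opposite ends of the PABPN comparison, both held neither motif in these windows, and ALYREF, IPO5, THOC7, NUP42 and TNPO1 held AATAAA.

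The data are log2 fold changes of RIP over input with standard errors (SE) from the authors' DESeq2 fits, each on 6 libraries. A transcript was called enriched above 0.5 and depleted below -0.5 at an adjusted p of at most 0.01 and a baseMean (the mean normalised read count over the 6 libraries) above 50, the cut-offs of the study. Reads in introns and exons were counted together, so a fold change covers spliced and unspliced RNA. Fold changes are relative to the scaling of each comparison, and in lysates of many cells a smaller bound share in each cell cannot be told apart from binding in fewer cells. The reads counted on the listed genes were estimated at 36.5 to 52.2 M per library, a total that leaves out reads not assigned to a gene. Markers of the line were present, with input means of 66434 normalised counts for NEFM and 15655 for VIM, 1644 for KRT18, 656 for KRT8 and 294 for PAX2, while the hepatocyte marker ALB had 5.04, the leukocyte marker PTPRC 0.693 and HBB a baseMean of 0.

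Of the 53 members, 52 had a baseMean above 50 in both comparisons, from 127 to 21040 with PABPN and from 72.6 to 25904 with PABPC. The exception was KPNA7, an importin alpha listed at a baseMean of 6.20 with PABPN and 3.11 with PABPC, whose log2 fold changes of 0.51 ± 0.86 and -1.12 ± 1.26 (SE) were not called. Per kilobase of exon, the input means in the PABPN comparison were highest for KPNA2 (3410), KPNB1 (3216) and the inner ring gene NUP188 (2949). They were lowest among those above the filter for NUP210L (23.9) and THOC3 (156). These levels are approximate, since intron reads entered the counts and intron length did not enter the divisor.

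More of these transcripts were depleted from PABPN than were enriched with it. With PABPN, 2 of the 52 members were enriched and 19 were depleted, where 17.5% and 14.6% of the 15526 genes of all kinds above the filter were enriched and depleted. The members' shares were 3.85% and 36.5%, and among 12799 protein coding genes they were 15.1% and 16.5%. The log2 fold change was below 0 in 39 of the 52, with a median of -0.35, against -0.04 over all genes and -0.09 over protein coding genes. Values ran from -1.72 for KPNA2 to 1.17 for TNPO2, with a median SE of 0.12.

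With PABPC the calls were divided, and both were less frequent than among all genes. Enriched members numbered 11 (21.2%) and depleted members 9 (17.3%), where 38.4% of the 14843 genes above the filter were enriched and 32.4% were depleted. The median was -0.12, against 0.14 over all genes and 0.25 over 12582 protein coding genes. Values ran from -2.29 for NUP210L to 1.92 for ALYREF. The median gene of the PABPC comparison was itself at 0.14. Once fold changes were centred on it the members split into 9 enriched (17.3%) and 15 depleted (28.8%). Of all genes centred in the same way, 34.8% and 34.6% were called. Centring against input shifted the fold changes alone and kept the adjusted p of the uncentred test.

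**Figure D1:**
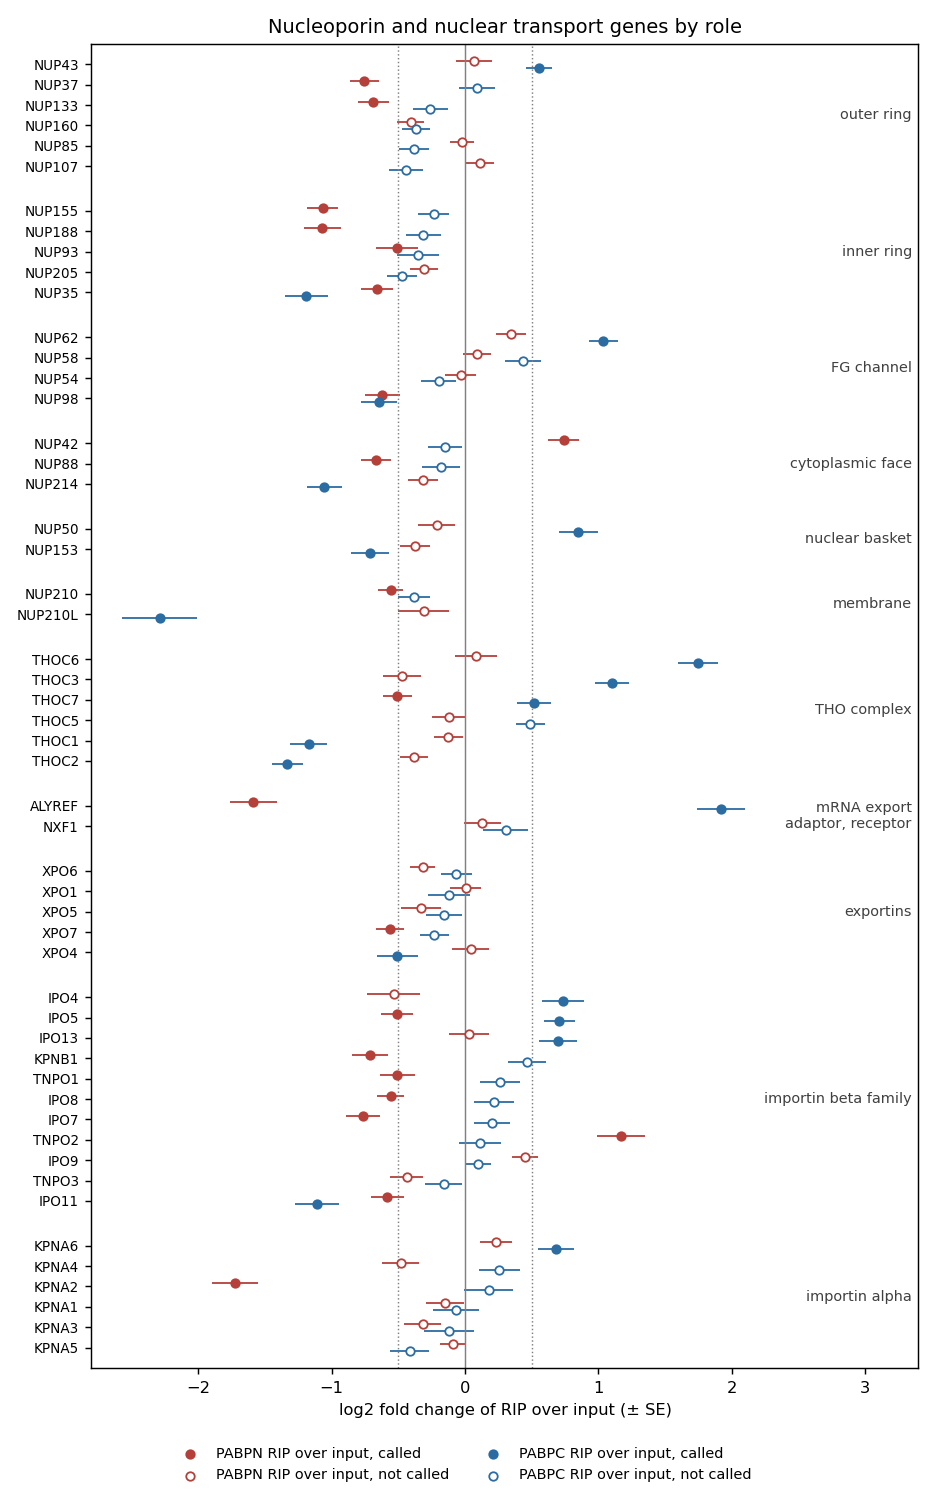
Log2 fold change of RIP over input (x axis, ± SE) for the 52 members above the filter, grouped by role, with PABPN in red and PABPC in blue. Filled points were called enriched or depleted, open points were not, and dotted lines mark 0.5 and -0.5. The widest gap between the colours is that of ALYREF, at -1.59 with PABPN and 1.92 with PABPC.

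The 2 comparisons share the input libraries, so the RIPs were compared through the difference of the fold changes, PABPN minus PABPC. It was tested with a two-sided normal test whose error adds both squared standard errors, with Benjamini-Hochberg adjustment over 14581 genes, and called beyond 0.5 at an adjusted p of at most 0.01. Of the 52 members, 7 were higher with PABPN (13.5%) and 19 were higher with PABPC (36.5%). Over all genes tested these shares were 36.1% and 33.4%, so the share higher with PABPC lay near the background and the share higher with PABPN lay below it. The median difference was -0.26, against 0.07 over all genes and -0.12 over 12452 protein coding genes.

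The mRNA export adaptor ALYREF had the largest difference among the members. Its mean went from 3790 normalised counts in input to 1263 in the PABPN RIP, a 3.00-fold lower level (log2 -1.59 ± 0.17, adjusted p = 3.16e-18 from DESeq2). In the PABPC comparison it went from 3243 to 12282, a 3.79-fold higher level (1.92 ± 0.18, adjusted p = 2.69e-25). Input means of the 2 comparisons differ by a constant 0.23 on the log2 scale because each was scaled on its own 6 libraries. The difference between the RIPs was -3.51 ± 0.25, or 11.4-fold (adjusted p = 7.96e-43). NXF1, the receptor that ALYREF loads onto mRNA, was called in neither comparison, at 0.13 ± 0.14 with PABPN and 0.31 ± 0.17 with PABPC, and its difference of -0.18 ± 0.22 was not called.

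The THO complex, which couples transcription to export and works upstream of ALYREF, split between the RIPs. With PABPN, THOC7 alone of its 6 members was depleted, at -0.51 ± 0.11, and the rest ran from -0.47 for THOC3 to 0.08 for THOC6. With PABPC, 3 were enriched and 2 were depleted. THOC6 was at 1.75 ± 0.15, THOC3 at 1.10 ± 0.13 and THOC7 at 0.52 ± 0.13, and all of these passed. THOC2, the large scaffold subunit, was at -1.33 ± 0.11 and THOC1 at -1.17 ± 0.14, both depleted, while THOC5 lay at 0.49 ± 0.11, just under the cut-off. The calls of THOC7 with either protein were lost once fold changes were centred on the median gene.

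All 6 THO members were called in the difference between the RIPs, 4 higher with PABPC and 2 higher with PABPN. Over all genes tested, 33.4% and 36.1% were called in these directions, so both kinds of call were common. THOC6 differed by -1.66 ± 0.22, THOC3 by -1.57 ± 0.19, THOC7 by -1.03 ± 0.17 and THOC5 by -0.61 ± 0.17. THOC1 differed by 1.05 ± 0.18 and THOC2 by 0.95 ± 0.15 in the other direction. Transcripts of this complex lay on both sides, as those of genes of all kinds did. Mean counts of THOC6 went from 622 in input to 2086 in the PABPC RIP and those of THOC2 from 10236 to 4067. THOC3 is uncertain, because 70.5% of the 75-base stretches of its transcript also occur in a transcript of a second locus on the same chromosome, chr5:177809407-177950732.

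Inner ring nucleoporins, the scaffold that lines the channel, had the highest share of depletion from PABPN among roles with more than 2 members. Depleted were 4 of the 5 (80%), with a median of -0.66, against 14.6% of all genes. Centring left 3 of them and ended the call of NUP93. NUP155 was at -1.07 ± 0.12, with means of 17669 in input and 8442 in the RIP, and NUP188 at -1.07 ± 0.14, with means of 23711 and 11309. NUP35 was at -0.66 ± 0.12 and NUP93 at -0.51 ± 0.16, and NUP205, at -0.31 ± 0.11 (adjusted p = 0.0118), was not called. All 5 were also below 0 with PABPC, from -1.19 ± 0.16 for NUP35, the 1 called there (with NUP205 as well after centring), to -0.23 ± 0.12 for NUP155. NUP155 and NUP188 were higher with PABPC than with PABPN, by differences of -0.83 ± 0.16 and -0.76 ± 0.19, and no other inner ring member was called in the difference.

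The 6 members of the outer ring, the Y-shaped complex of the scaffold, had 3 calls against input. With PABPN, NUP37 (-0.75 ± 0.11) and NUP133 (-0.69 ± 0.12) were depleted, and the highest of the 6 was NUP107 at 0.11 ± 0.10. With PABPC, NUP43 was enriched at 0.56 ± 0.10 (not called after centring) and none was depleted, the lowest being NUP107 at -0.44 ± 0.13. After centring, NUP107 (-0.58), NUP160 (-0.50) and NUP85 (-0.52) were depleted from PABPC. The difference was called for NUP37, higher with PABPC (-0.84 ± 0.17), and for NUP107, higher with PABPN (0.55 ± 0.16, not called after centring). NUP160 lay at -0.41 ± 0.10 and -0.36 ± 0.10, and NUP85 at -0.02 ± 0.09 and -0.38 ± 0.11, with PABPN and PABPC respectively. SEC13 and SEH1L, outer ring genes outside the name rule, were depleted from PABPN (-0.74 ± 0.16 and -0.69 ± 0.14). Both were enriched with PABPC (1.21 ± 0.16 and 0.91 ± 0.18) and called higher with it, by -1.96 ± 0.23 and -1.59 ± 0.23. The nucleoporin AHCTF1, also outside the rule, was called the other way (1.17 ± 0.17).

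Among the FG nucleoporins of the channel, NUP62 and NUP98 lay at the ends. NUP62 was at 0.34 ± 0.11 with PABPN, which is under the cut-off. With PABPC it was enriched at 1.04 ± 0.11, and the difference of -0.70 ± 0.16 was called. NUP98 was depleted from both, at -0.62 ± 0.13 and -0.65 ± 0.13, and its difference of 0.03 ± 0.19 was not called. The partners of NUP62 in the central channel, NUP54 and NUP58, were called in neither comparison, NUP54 at -0.03 ± 0.12 and -0.20 ± 0.13 and NUP58 at 0.09 ± 0.10 and 0.44 ± 0.14.

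The cytoplasmic face held 1 of the 2 members enriched with PABPN. NUP42, a docking site for the export helicase machinery, was at 0.74 ± 0.12 with PABPN (adjusted p = 4.54e-09 from DESeq2), with means of 2792 in input and 4662 in the RIP. With PABPC it was at -0.15 ± 0.13, and the difference of 0.89 ± 0.17 was called. NUP88 was depleted from PABPN at -0.67 ± 0.11 and lay at -0.18 ± 0.14 with PABPC. NUP214, the binding partner of NUP88, showed the reverse order, at -0.31 ± 0.11 with PABPN (not called) and -1.05 ± 0.13 with PABPC (depleted), a difference of 0.74 ± 0.17 that was called.

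The nuclear basket and membrane nucleoporins divided in the PABPC comparison as well. NUP50, a mobile basket protein that helps to release import cargo, was enriched with PABPC at 0.85 ± 0.15, and its difference of -1.06 ± 0.20 was called. NUP153, to which NUP50 binds, was depleted from PABPC at -0.71 ± 0.14, and neither was called with PABPN (-0.21 ± 0.14 and -0.37 ± 0.11). The membrane protein NUP210 was depleted from PABPN at -0.56 ± 0.09 and not called with PABPC at -0.38 ± 0.12, though depleted after centring. NUP210L, its paralogue, had the lowest level of the members tested, with input means of 141 and 121 in the 2 comparisons. It was at -0.31 ± 0.19 with PABPN and at -2.29 ± 0.28 with PABPC, where its mean in the RIP was 24.7, and the difference of 1.98 ± 0.34 was the highest among the members.

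**Figure D2:**
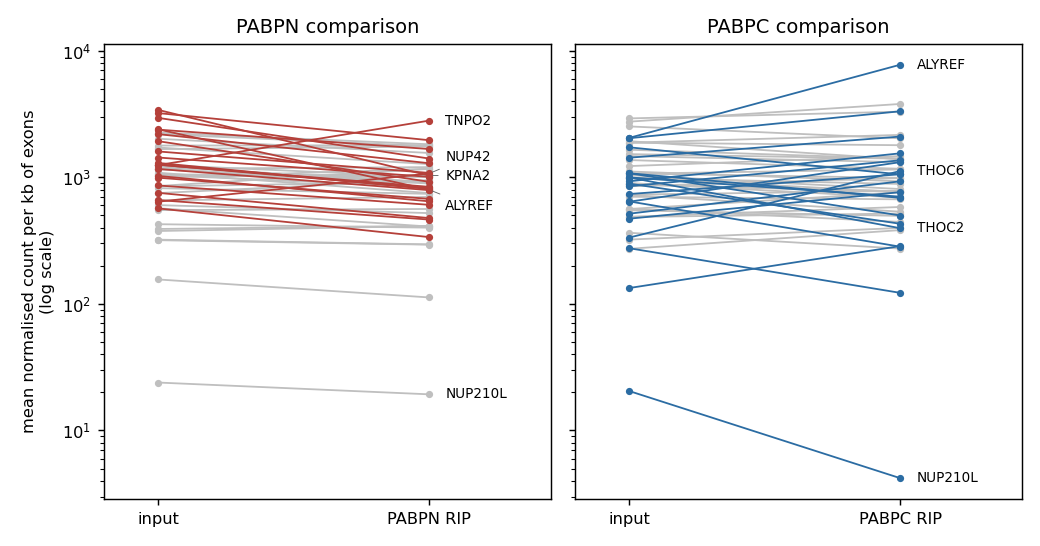
Mean normalised count per kilobase of exon (y axis, log scale) of each member in input and in RIP, for the PABPN comparison (left, red) and the PABPC comparison (right, blue), with 1 line per member and grey lines for those not called. ALYREF lies at the top of the PABPC RIP, where its mean went from 3243 to 12282 counts before division by length. Means are over 3 libraries a group and carry no error bars, because values per library were not analysed here.

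The importin beta family, the carriers themselves, was the largest role and held most depletions from PABPN in number, though not in share. Of its 11 members, 6 were depleted (54.5%) and 1 was enriched (9.09%), with a median of -0.51. Over all genes 14.6% were depleted and 17.5% were enriched. IPO7 was at -0.76 ± 0.13, KPNB1 (importin beta itself) at -0.71 ± 0.14, IPO11 at -0.58 ± 0.12, IPO8 at -0.56 ± 0.10, and IPO5 and TNPO1 at -0.51 with SEs of 0.12 and 0.13. IPO4 had a similar value, -0.53, with an SE of 0.20 and was not called (adjusted p = 0.0185). IPO5 at -0.509 and TNPO1 at -0.508 passed the cut-off narrowly, as NUP93 (-0.512) and THOC7 (-0.508) did, and none of these 4 was called with PABPN after centring.

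TNPO2 was the member most enriched with PABPN. Its mean rose from 8763 normalised counts in input to 19709 in the RIP, 2.25-fold (1.17 ± 0.18, adjusted p = 7.13e-10 from DESeq2), and with PABPC it lay at 0.11 ± 0.16. The difference of 1.06 ± 0.24 was called (adjusted p = 1.56e-05). TNPO1, which encodes the closely related transportin 1, was depleted from PABPN at -0.51 ± 0.13 and lay at 0.26 ± 0.15 with PABPC, a difference of -0.77 ± 0.20. In the windows shown above TNPO1 holds AATAAA, while TNPO2 and KPNA2, the lowest member with PABPN, do not. Whether the motif bears on these values was not tested. IPO9 was at 0.45 ± 0.10 with PABPN, under the cut-off, and TNPO3, which imports splicing factors, was called in neither comparison (-0.44 ± 0.12 and -0.16 ± 0.14).

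With PABPC, 3 of the 11 carriers were enriched (27.3%) and 1 was depleted (9.09%), against 38.4% and 32.4% of all genes. IPO4 was at 0.73 ± 0.16, IPO5 at 0.71 ± 0.12 and IPO13 at 0.70 ± 0.14, and IPO11 was at -1.11 ± 0.16. KPNB1 had a value of 0.46 ± 0.14, short of the cut-off. In the difference between the RIPs, 7 of the 11 were higher with PABPC (63.6%) and TNPO2 was higher with PABPN (9.09%). Over all genes tested these shares were 33.4% and 36.1%. The 7 were IPO4 (-1.27 ± 0.25), IPO5 (-1.22 ± 0.17), KPNB1 (-1.18 ± 0.19), IPO7 (-0.97 ± 0.18), IPO8 (-0.77 ± 0.18), TNPO1 and IPO13 (-0.67 ± 0.20). IPO5 passed in both comparisons in opposite directions, with means of 23004 in input and 16160 in the PABPN RIP and of 19678 and 32129 in the PABPC comparison. IPO4 is uncertain, because 94.9% of its 75-base stretches also belong to an overlapping gene in GENCODE release 44 on the same strand, at chr14:24180395-24190416.

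Importin alpha transcripts, which encode the adaptors that recognise the classical nuclear localisation signal, were called once with each protein, KPNA2 with PABPN and KPNA6 with PABPC. KPNA2 went from 10103 in input to 3060 in the PABPN RIP, 3.30-fold lower (-1.72 ± 0.17, adjusted p = 2.70e-22 from DESeq2). With PABPC it was at 0.18 ± 0.18, and the difference of -1.90 ± 0.25 was called (adjusted p = 1.25e-13). No other importin alpha was called with PABPN, the values running from -0.48 ± 0.14 for KPNA4 to 0.23 ± 0.12 for KPNA6. With PABPC, KPNA6 was enriched at 0.68 ± 0.14, and the lowest was KPNA5 at -0.42 ± 0.14, which centring made a depletion. KPNA4 differed between the RIPs by -0.74 ± 0.21. KPNA1, at -0.15 and -0.07, and KPNA3, at -0.32 and -0.12, were called in neither comparison.

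Of the 14 listed pseudogenes named after a member, 1 had a baseMean above 50, and it moved the other way from its parent with PABPN. KPNA2P3, a transcribed unprocessed pseudogene at chr17:64749918-64758603, went from 291 to 2024 with PABPN, 6.94-fold (2.80 ± 0.11), and was enriched with PABPC at 1.25 ± 0.13. Of the 774 stretches of 75 bases in its transcript, 141 (18.2%) also occur in the transcript of a member, and 10.7% of those of KPNA2 occur in transcripts of other genes. What shared reads contribute to either value was not tested.

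The 5 exportins of the XPO series, which carry proteins and some RNAs out of the nucleus, had 1 call with each protein. With PABPN, XPO7 was depleted at -0.56 ± 0.10, and with PABPC, XPO4 was depleted at -0.51 ± 0.15. The other values ran from -0.33 ± 0.15 for XPO5 to 0.04 ± 0.14 for XPO4 with PABPN, and from -0.23 ± 0.11 for XPO7 to -0.07 ± 0.12 for XPO6 with PABPC. XPO1, the main exportin for leucine-rich export signals, was at 0.01 ± 0.12 and -0.12 ± 0.16. None of the 5 was called in the difference between the RIPs, where the values ran from -0.33 for XPO7 to 0.55 ± 0.21 for XPO4 (adjusted p = 0.0110). A p short of the threshold does not show that they did not differ. The exportins XPOT and CSE1L, outside the name rule, were called higher with PABPC, by -0.93 ± 0.15 and -0.68 ± 0.22. XPOT was enriched with PABPC (0.72 ± 0.10) and CSE1L was depleted from PABPN (-0.79 ± 0.14).

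**Figure D3:**
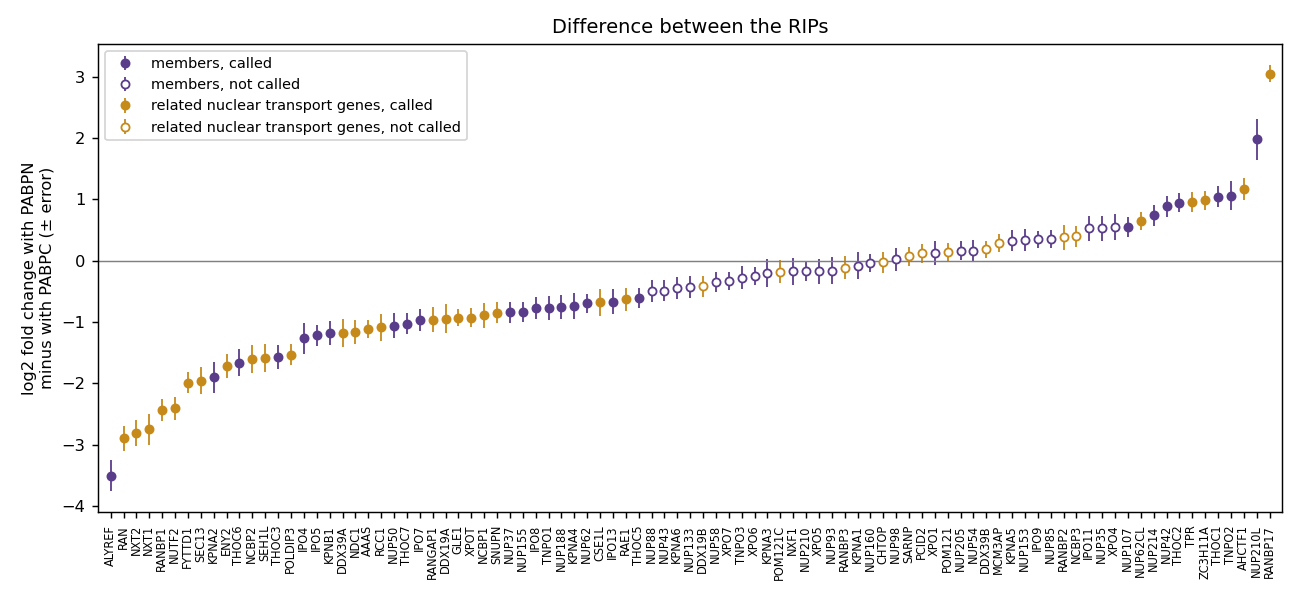
Log2 fold change with PABPN minus that with PABPC (y axis, ± error from both standard errors) for the 52 members (purple) and 39 related nuclear transport genes (orange), in order. Filled points were called. ALYREF, at -3.51, is the lowest and RANBP17, at 3.05, the highest.

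A list of 39 other genes of nuclear transport and mRNA export, outside the name rule, was set beside the members. With PABPN 4 were enriched (10.3%) and 11 were depleted (28.2%), against 17.5% and 14.6% of all genes. With PABPC 22 were enriched (56.4%) and 6 were depleted (15.4%), against 38.4% and 32.4%. In the difference between the RIPs, 5 (12.8%) were higher with PABPN and 23 (59.0%) were higher with PABPC, against 36.1% and 33.4% of all genes, with a median of -0.89. The lowest was RAN, the GTPase that gives transport its direction, at -1.25 ± 0.15 with PABPN and 1.65 ± 0.14 with PABPC, a difference of -2.90 ± 0.21. NXT2 and NXT1, the small cofactors of NXF1, followed at -2.82 ± 0.21 and -2.75 ± 0.25. The highest were RANBP17, an importin beta relative, at 3.05 ± 0.14, AHCTF1, a nucleoporin that starts pore assembly on chromatin, at 1.17 ± 0.17, and ZC3H11A, an mRNA export factor, at 0.98 ± 0.15. The adaptor ALYREF and both cofactors of NXF1 were called higher with PABPC, and NXF1 itself was not called. Genes of mRNA export did not all lie on that side. THOC1, THOC2 and ZC3H11A were called higher with PABPN, and others of the list were called in neither direction.

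Members differed in gene structure, and the PABPC values followed it. The members with the shortest summed introns were THOC6 (2305 bases), ALYREF (2655), IPO4 (5100), THOC3 (7184) and KPNA2 (9143), and their PABPC values were 1.75, 1.92, 0.73, 1.10 and 0.18. Those of IPO4 and THOC3 are uncertain because of the shared sequence given above. Those with the longest were IPO11 (211455), THOC2 (126884), NUP98 (115810), XPO4 (115561) and NUP93 (111924), and their PABPC values were -1.11, -1.33, -0.65, -0.51 and -0.35. Over the 51 members above the filter that have a MANE Select transcript the Spearman correlation of the PABPC fold change was -0.63 with summed intron length and -0.52 with coding (CDS) length. Over 12374 protein coding genes these were -0.77 and -0.53. With PABPN the correlations with CDS length were -0.18 for members and 0.06 for protein coding genes, and those with intron length were -0.21 and -0.16. These are descriptions across genes, which share libraries and scaling and are not replicates, and intron reads are part of the counts.

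**Figure D4:**
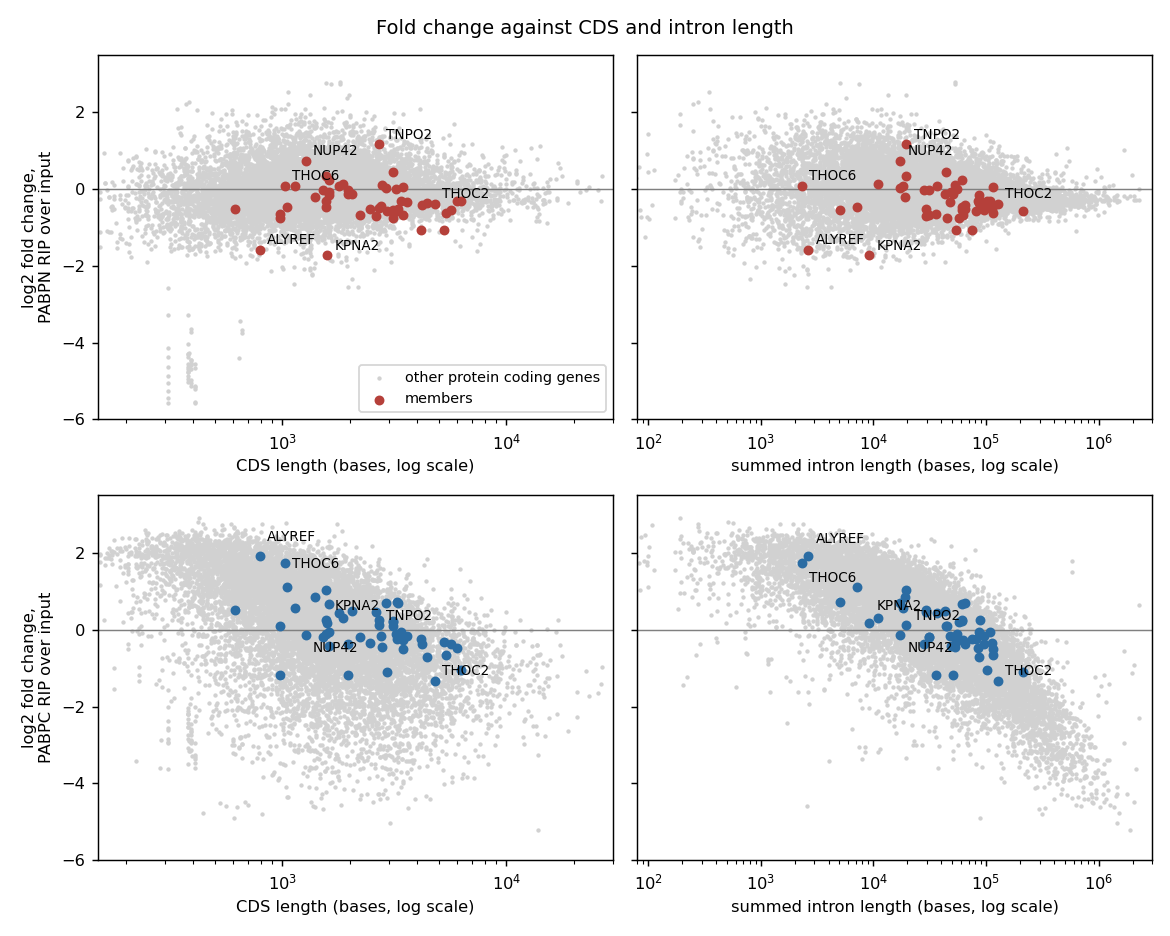
Log2 fold change of RIP over input (y axis) against CDS length (left) and summed intron length (right, both log scales), with PABPN above and PABPC below. Coloured points are the 51 members above the filter that have a MANE Select transcript, and grey points are the other protein coding genes above it. With PABPC the members descend with intron length (Spearman -0.63), and with PABPN they do so less (-0.21).

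Coding sequences of the members ran from 612 bases (THOC7) to 6270 (NUP214), and members were split by CDS rank into 3 groups of 17. In the longest group, from 3213 bases, 5 members (29.4%) were depleted from PABPC with a median of -0.31, while 58.6% of 1307 protein coding genes of the same lengths were depleted, with a median of -0.74. In the shortest group, up to 1617 bases, 8 members (47.1%) were enriched with PABPC with a median of 0.26, against 53.6% of 5493 genes with a median of 0.61. With PABPN, 7 of 17 members (41.2%) in the longest group and 5 of 17 (29.4%) in the shortest were depleted, against 10.3% and 16.4% of protein coding genes of those lengths. In the middle group, from 1797 to 3123 bases, 7 of 17 members (41.2%) were depleted from PABPN, against 13.9% of 2879 genes. With PABPC, 1 member of that group was enriched (5.88%) and 2 were depleted (11.8%), against 20.9% and 36.3%. The share depleted from PABPN was thus higher among members than among genes of equal coding length in all 3 groups, as a description without a test.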

How the data were processed

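RNA from input, PABPN RIP and PABPC RIP of HEK293T cells was sequenced in 9 libraries, 3 per group, grouped by the sample titles. The authors aligned reads to hg38 with STAR and counted intron and exon reads together with featureCounts 2.0.2 (minimum overlap 20 bases) on an annotation derived from GENCODE release 34, without stretches shared by overlapping genes and without readthrough transcripts. The authors tested each RIP against input with DESeq2 and removed, per RIP, genes transcribed from upstream. The strand setting and the design formula are not given in the sources used here.

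The signal column deposited by the authors, baseMean, is the mean normalised count over 6 libraries. The authors' deposited log2 values are fold changes of RIP over input with their standard errors. The p-value column deposited by the authors is the Benjamini-Hochberg adjusted Wald p. Gene length is exonic. The tables hold the authors' own comparisons, so calls against input rest on their fit, and their unadjusted p-values and Wald statistics were not used. The tables held 51234 and 51391 rows, of which 123 repeated an identifier in each and were dropped.

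Group means were solved from baseMean and fold change. Depth was estimated from the lowest baseMean values, each of which is 1 read in 1 library. The difference between the RIPs was computed in Python 3.11.15 with pandas 2.3.3, numpy 2.4.6 and scipy 1.17.1 and tested on simulated data, and figures were drawn with matplotlib 3.10.9. Its error counts the shared input in both comparisons. The 3 replicates are stated to be biological. Precision is that of each standard error, which carries the spread between replicates, since values per library were not analysed here.

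Members, roles and the list of 39 related genes were chosen with earlier results of these data known. Any member could be named, each role by its counts and its highest and lowest member, pseudogenes above the filter, and the 3 highest and lowest related genes. SEC13, SEH1L, CSE1L and XPOT were named beside their roles after their values were seen. Other related genes were not placed beside a role in this way. Among them were TPR, called higher with PABPN (0.96 ± 0.17), and NDC1, called higher with PABPC (-1.17 ± 0.19). Coordinates and sequences come from GENCODE release 44 on hg38. Alternatives were other cut-offs of log2 fold change (1), baseMean (200) and adjusted p (0.05), centring, a test against 0.5, and a correlation of 0.5 for the shared input. In centring, calls against input kept the adjusted p of the uncentred test, and p was recomputed for the difference alone.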

Additional observations from a re-analysis of the deposited data

Results flagged for a closer look

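Members whose fold changes passed in both comparisons in opposite directions were singled out. ALYREF, depleted from PABPN and enriched with PABPC, differed by -3.51. IPO5 differed by -1.22 and THOC7 by -1.03, in the same directions. All 3 differences were called, but choosing genes by opposite calls fixes a difference beyond 1, so these values are a description. The PABPN values of IPO5 (-0.509) and THOC7 (-0.508) lay close to the cut-off of -0.5, and that of ALYREF (-1.59) did not. The spread of single libraries could not be screened for values far from the rest, because the tables hold none per library.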

How the results depend on the processing

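No paired analysis was possible because the tables carry no values per library, and for the same reason leaving out a replicate, another count tool and the unfiltered counts were not run. A log2 cut-off of 1, and a test that the change itself exceeds 0.5, each left 1 member enriched with PABPN in place of 2, 4 depleted in place of 19, and 4 enriched with PABPC in place of 11. Asking for a difference beyond 1 left 3 members higher with PABPN in place of 7 and 9 higher with PABPC in place of 19. Shares over all genes were not taken at these settings, so these counts cannot be set against a background. Centring on the median of all genes moved the PABPC median to -0.26 and its depleted members from 9 to 15. Centring turned the sign of 6 values that were not called, NUP85 (0.0179) and NUP54 (0.0109) with PABPN, TNPO2 (-0.0277), IPO9 (-0.0416) and NUP37 (-0.0506) with PABPC, and the difference of NUP98 (-0.0416). It also ended the PABPN calls of IPO5, NUP93, THOC7 and TNPO1, the PABPC calls of NUP43 and THOC7, and the called difference of NUP107. It added depletions from PABPC for KPNA5, NUP107, NUP160, NUP205, NUP210 and NUP85, and differences higher with PABPC for KPNA6, NUP43 and NUP88. A baseMean above 200 removed NUP210L and changed no other member's call. Allowing an adjusted p of 0.05, or treating the shared input as a correlation of 0.5 between the errors, changed calls in the difference for 3 members each, both times IPO11, NUP35 and XPO4, and the former also added the depletion of IPO4 from PABPN.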

Other observations

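Of 8 long non-coding RNAs named after a member, as its divergent or antisense transcript, 5 had a baseMean above 50 in at least 1 comparison, and they were looked at after their values were seen. NUP50-DT was enriched with PABPN at 0.67 ± 0.12 and depleted from PABPC at -1.05 ± 0.14, while NUP50 itself was at -0.21 and 0.85. KPNB1-DT was enriched with PABPN at 0.65 and depleted from PABPC at -1.12, while KPNB1 was at -0.71 and 0.46. NUP93-DT was enriched with PABPN at 1.50 ± 0.31 and was below the filter with PABPC. THOC1-DT lay at 0.84 ± 0.28 with PABPN (adjusted p = 0.0101), short of a call, and IPO9-AS1 was at -0.05 with PABPN and -2.42 with PABPC. In GENCODE release 44 the divergent transcripts do not overlap their members, and the 5′ end of IPO9-AS1 overlaps that of IPO9 on the other strand.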
